A study of Carassius gibelio with 4 samples.

Results

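Among 56011 gene IDs measured in liver RNA of gibel carp (Carassius gibelio), 43 were at a middling to high level and were lower in strain F than in strain A on both diets. They were chosen by their values: a mean over the 4 libraries from 100 to under 1000 FPKM, above 0 in strain F on rapeseed, and log2(FPKM + 1) at least 1 lower in strain F than in strain A on fishmeal and again on rapeseed. FPKM counts sequenced fragments relative to transcript length and library size. The labels state no unit, and the values were read as FPKM multiplied by 1 factor per library. On that reading levels are per length and may be compared between IDs. The 43 were part of 774 IDs in that level class. The strain differences therefore describe the choice, and no test of them is given.

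The groups were strain F on a fishmeal diet, strain A on a fishmeal diet, strain F on a rapeseed meal diet and strain A on a rapeseed meal diet, each with 1 library of liver sampled 8 hours after the last feeding. The study asked how the liver transcriptomes of these strains responded to the diets. The labels do not give the origin of the strains, the age of the fish or how many fish entered a library. No difference here has a replicate check, and no p-value is given.

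Gibel carp is a polyploid cyprinid that can reproduce by gynogenesis, in which sperm triggers development of the egg and the offspring inherit the maternal genome. Strains can therefore be clonal lines that differ at many loci. Rapeseed meal is a plant protein that replaces fishmeal in feeds, and it carries compounds such as glucosinolates and phytate that fishmeal lacks. The liver handles absorbed nutrients and makes most plasma proteins, so its transcript levels can differ with both genotype and feed.

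The IDs, such as c9762_g1, come without gene names. Of all IDs, 0 matched a name in the RefSeq gene table of the species, so no function can be given, no liver marker could be checked and no sequence is shown. IDs that share their number before _g are treated as 1 assembly component, from the form of the names. In a polyploid such parts can be near-identical gene copies, alleles or pieces of 1 transcript, and reads can be split among them.

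The strain F fishmeal library stood apart: 36996 IDs were listed at 0 there, against 8172 to 11105 in the other libraries. Its reads per ID are unknown. Each library's low values were whole multiples of a fixed step, which gave a scale factor of 0.705 for strain F on fishmeal, 0.993 for strain A on fishmeal, 1.07 for strain F on rapeseed and 1.34 for strain A on rapeseed. The factors shift log2 strain differences (F over A) by -0.49 on the fishmeal diet and by -0.32 on the rapeseed diet. They shift log2 diet differences (rapeseed over fishmeal) by 0.60 in strain F and by 0.43 in strain A. Values below are on the deposited scale unless stated otherwise.

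The 43 IDs ranged from a listed 0 to 351 FPKM in strain F on fishmeal, with a median of 52.9, and from 23.0 to 1581 FPKM in strain A on fishmeal, with a median of 239. On rapeseed they ranged from 7.95 to 597 FPKM in strain F, with a median of 157, and from 166 to 2878 FPKM in strain A, with a median of 499. Together they made up 0.399% of the summed level of the strain F fishmeal library against 1.12% in strain A on fishmeal. On rapeseed they made up 0.649% in strain F against 1.97% in strain A. Shares of a library's sum do not depend on the scale factors. In bulk liver, fewer cells of a type and less RNA per cell cannot be told apart.

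**Figure D1:**
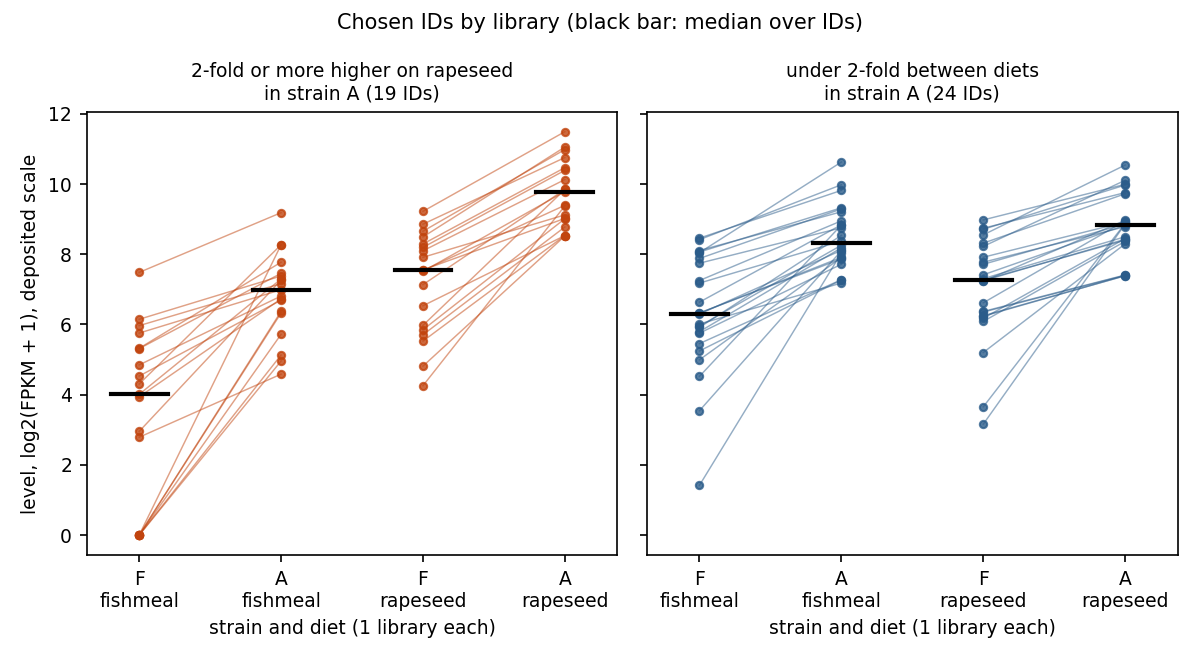
Level of each of the 43 IDs as log2(FPKM + 1) in each library, for the 19 IDs with a level at least 2-fold higher on rapeseed in strain A (left) and the other 24 (right). Points are IDs, lines join the strains on 1 diet and black bars are medians over IDs. In the left panel the medians are 15.1 FPKM in strain F against 126 FPKM in strain A on fishmeal, and 185 FPKM in strain F against 882 FPKM in strain A on rapeseed. In the right panel the medians are 78.4 FPKM in strain F against 318 FPKM in strain A on fishmeal, and 152 FPKM in strain F against 459 FPKM in strain A on rapeseed.

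The rule sets strain F below strain A on each diet, so only some orders of the 4 libraries were possible. The lowest library had to be of strain F and the highest of strain A. Strain F on fishmeal was the lowest library for 36 of the 43 IDs and strain A on rapeseed the highest for 39. These libraries have the lowest and highest scale factors, 0.705 and 1.34, so both counts depend on the scale. With the factors divided out, the median log2 diet fold of the 43 fell from 1.31 to 0.72 in strain F. In strain A it fell from 0.85 to 0.42. In 19 IDs the order was strain F on fishmeal, strain F on rapeseed, strain A on fishmeal and strain A on rapeseed, from low to high. This count depends on the scale too. For example, c15214_g1 had this order with a log2 diet fold of 0.12 in strain A, which became -0.31 with the factors divided out. In 14 IDs strain F on rapeseed stood above strain A on fishmeal. That number was 14 again with the scale factors divided out, the factors of these libraries being close (1.07 and 0.993).

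The IDs with the highest mean levels were of different kinds. c9762_g1 had 18.8 FPKM in strain F against 308 FPKM in strain A on fishmeal, and 597 FPKM in strain F against 2878 FPKM in strain A on rapeseed. Its level was thus higher on rapeseed in both strains and lower in strain F on both diets. c36474_g2 had 263 FPKM in strain F against 1581 FPKM in strain A on fishmeal, and 374 FPKM in strain F against 1490 FPKM in strain A on rapeseed. It differed between the strains with little difference between the diets.

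On rapeseed, where 2 IDs of the class were listed at 0 in strain F and 4 in strain A, the 43 IDs were lower in strain F by a median log2 fold of -1.99, the lowest being -5.70. Strain F held a median of 25.1% of the strain A level, from 1.71 to 49.8%. The rule required a 2-fold lower level here. Of the 774 IDs of the class, 10.1% were 2-fold lower on rapeseed, 19.5% on fishmeal and 5.81% on both. These shares include the 43 themselves. Of the other 731 IDs, 4.79% were 2-fold lower on rapeseed and 14.8% on fishmeal. The class had a median log2 fold of -0.16 on rapeseed and -0.50 on fishmeal. By size, 23 IDs were lower by 2-fold to under 4-fold, 11 by 4-fold to under 8-fold and 9 by 8-fold or more.

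The largest difference on rapeseed was that of c32262_g3, at 7.95 FPKM in strain F against 464 FPKM in strain A (log2 fold -5.70). On fishmeal it stood at 22.0 FPKM in strain F against 455 FPKM in strain A (log2 fold -4.31). c33907_g1 followed, at 11.6 FPKM in strain F against 471 FPKM in strain A on rapeseed (log2 fold -5.23). For both IDs the strain A levels were 261 FPKM or above on either diet and the strain F levels 22.0 FPKM or below.

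On fishmeal 37 of the IDs were above 0 in strain F, and these were lower there by a median log2 fold of -1.96, from -6.61 to -1.01. Strain F held a median of 25.3% of the strain A level, from 0.642 to 49.6%. Of the 37, 20 were lower by 2-fold to under 4-fold, 11 by 4-fold to under 8-fold and 6 by 8-fold or more. Over all 43, with listed zeros entered as 0, the median was -2.15. The largest differences above 0 were those of c33907_g1, at 1.68 FPKM in strain F against 261 FPKM in strain A (log2 fold -6.61), and c33007_g2, at 10.7 FPKM in strain F against 273 FPKM in strain A (log2 fold -4.55). On rapeseed c33007_g2 stood at 67.0 FPKM in strain F against 330 FPKM in strain A, a smaller difference (log2 fold -2.28).

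The fishmeal difference rests on the library with many zeros and the lowest scale factor. Among 352 IDs of the level class whose other 3 libraries lay within 1.5-fold of each other, 69, or 19.6%, stood at least 2-fold below them in strain F on fishmeal. With the scale factors divided out this was 7, or 1.99%.

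**Figure D2:**
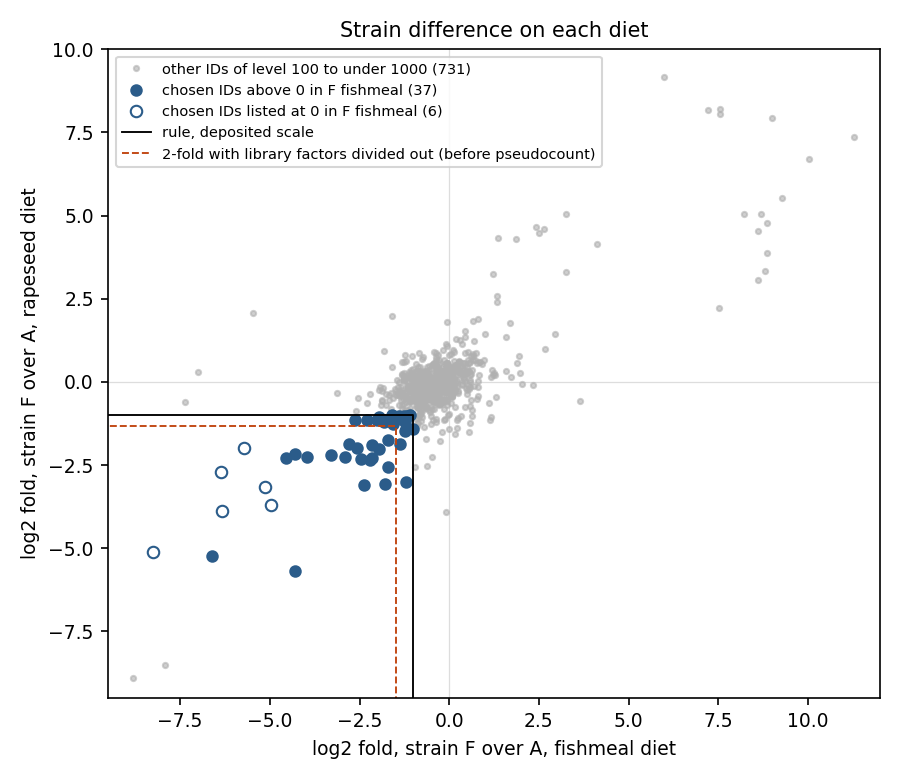
Strain difference (log2 of F over A) with the fishmeal diet (x axis) and the rapeseed diet (y axis) for the 774 IDs of mean level 100 to under 1000. Filled blue points are the 37 chosen IDs above 0 in strain F on fishmeal, open ones the 6 listed at 0 there, and grey points the other 731. Solid lines mark the rule and dashed lines where 2-fold lies once the scale factors are divided out. Many chosen IDs lie between the solid and dashed lines.

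Of the 43, 6 IDs were listed at 0 in strain F on fishmeal, or 14.0%, against 11 of the 774 IDs of the class, or 1.42%. A zero there helps an ID to pass the rule, so this is a description. c30588_g2 was listed at 0 in strain F against 307 FPKM in strain A on fishmeal, with 18.1 FPKM in strain F against 664 FPKM in strain A on rapeseed. c31348_g1 was listed at 0 in strain F against 81.9 FPKM in strain A on fishmeal, with 140 FPKM in strain F against 919 FPKM in strain A on rapeseed. In strain A all 6 stood at least 2-fold higher on rapeseed. With the scale factors divided out 5 did, and c30588_g2 had a log2 fold of 0.68. Except for c30588_g2, the 6 IDs had under 100 FPKM in strain A on fishmeal. So did 110 IDs of the class, of which 6 were listed at 0 in strain F. For the 5 chosen IDs under 100 FPKM there and listed at 0, the rule forced the 2-fold higher level on rapeseed in strain A. Their mean had to reach 100 FPKM with strain F at 0 on fishmeal and at least 2-fold lower on rapeseed. No fold of a single ID against a listed 0 is given in the text. Medians, counts and figures that include such IDs enter the zero as 0, so those folds depend on the 1 added before the log.

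With the scale factors divided out, 33 IDs stayed at least 2-fold lower in strain F on fishmeal, 29 on rapeseed and 24 on both. By that measure, 8.27% of the 774 IDs were 2-fold lower on fishmeal, 5.81% on rapeseed and 3.36% on both. These shares again include the 43. Among the other 731 IDs they were 4.24% on fishmeal and 2.19% on rapeseed. Of the 19 IDs that no longer passed on both diets, 9 fell short on rapeseed alone and 5 on both. Their folds there were -0.51 or lower. The median log2 fold of the 43 became -1.66 on fishmeal and -1.67 on rapeseed, while that of the class became -0.01 on fishmeal and 0.16 on rapeseed. The rule asked for -1 or lower, and the factors shift strain folds by only -0.49 on fishmeal and -0.32 on rapeseed. All 43 therefore had to stay lower in strain F on both diets, and this is no check of the scale.

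In strain A, 19 of the 43 IDs (44.2%) stood at least 2-fold higher on rapeseed than on fishmeal and 0 were 2-fold lower. In the whole class 14.6% were 2-fold higher and 2.45% 2-fold lower. The median log2 fold of the 43 was 0.85, against 0.33 in the class. With the scale factors divided out, 17 of the 43 were 2-fold higher and 0 lower, against 9.04% and 5.04% of the class. The rule asked for a high level in strain A on rapeseed relative to strain F, and its mean level includes that library. The share of IDs higher on rapeseed is therefore not free of the choice. Of 33 IDs of the class that were 2-fold lower in strain F on rapeseed but not on fishmeal, 19 (57.6%) were also 2-fold higher on rapeseed in strain A and 0 were lower. With the factors divided out these were 14 (42.4%) and 0. Choosing IDs lower on rapeseed but not on fishmeal makes the diet fold higher in strain A than in strain F. These counts are thus not free of the choice either.

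The folds in strain A fell into a high set and a range of smaller ones. In 14 IDs the log2 fold was 2.67 to 4.19, and in the rest of the 19 it was 1.11 to 2.03. In the class, which includes the 43, 4.13% of IDs reached a log2 fold of 2.5, against 32.6% of the 43. The mean level of the rule includes strain A on rapeseed, and some of the 14 were under 100 FPKM in every other library. Those reached the class only through strain A on rapeseed, so the 32.6% follows in part from the choice. The limit of 2.5 was chosen after the values were seen. The 14 IDs had a median of 919 FPKM on rapeseed and 104 FPKM on fishmeal in strain A. In strain F their medians were 183 FPKM on rapeseed and 10.5 FPKM on fishmeal, and 5 of them were listed at 0 on fishmeal.

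The largest diet difference in strain A was that of c28218_g2, at 438 FPKM on rapeseed against 23.0 FPKM on fishmeal (log2 fold 4.19). In strain F c28218_g2 stood at 51.2 FPKM on rapeseed against 5.91 FPKM on fishmeal (log2 fold 2.92). c12210_g1 stood at 515 FPKM on rapeseed against 34.0 FPKM on fishmeal in strain A (log2 fold 3.88). In strain F it stood at 56.7 FPKM on rapeseed and was listed at 0 on fishmeal. Both were thus low on fishmeal in either strain, and stood far higher in strain A on rapeseed than in any other library. The rule forced much of this pattern. With fishmeal values this low, their means could reach the level class only through a high level in strain A on rapeseed. Strain F had to be lower than strain A on that diet. The diet folds of both IDs in strain A are therefore not free of the choice.

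The other 24 IDs had log2 folds from -0.32 to 0.97 between the diets in strain A, with a median of 0.25. The largest lower ones were those of c36916_g1, at 168 FPKM on rapeseed against 209 FPKM on fishmeal (log2 fold -0.32), and c29853_g1, at 483 FPKM on rapeseed against 591 FPKM on fishmeal (log2 fold -0.29). Neither reached 2-fold. These 24 IDs had a median of 459 FPKM on rapeseed and 318 FPKM on fishmeal in strain A, and of 152 FPKM on rapeseed and 78.4 FPKM on fishmeal in strain F.

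The scale bore more on the 24 than on the 19. With the factors divided out, 16 of the 19 IDs higher on rapeseed in strain A stayed 2-fold lower in strain F on both diets, and 8 of the other 24 did. On the deposited scale the strain difference on rapeseed had a median log2 fold of -2.27 in the 19 and -1.23 in the 24. On fishmeal it was -2.79 in the 19, with 6 listed zeros entered as 0, and -1.82 in the 24. The strain and diet folds share the strain A libraries, so these medians are not independent of how the 19 were set apart.

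In strain F, 21 of the 37 IDs above 0 on fishmeal were at least 2-fold higher on rapeseed and 1 was 2-fold lower. With the 6 IDs listed at 0 on fishmeal, 27 of the 43 were higher, against 26.4% of the class higher and 3.10% lower. With the scale factors divided out, 20 of the 43 were higher and 3 lower, against 8.27% and 5.17%. c31941_g1 stood at 313 FPKM on rapeseed against 6.75 FPKM on fishmeal in strain F (log2 fold 5.34), and at 1415 FPKM on rapeseed against 153 FPKM on fishmeal in strain A (log2 fold 3.20). c9762_g1, described above, had a log2 fold of 4.92 in strain F and 3.22 in strain A. The ID that was 2-fold lower was c32262_g3, at 7.95 FPKM on rapeseed against 22.0 FPKM on fishmeal (log2 fold -1.36). c32148_g1 had the next lowest fold, at 35.8 FPKM on rapeseed against 54.6 FPKM on fishmeal (log2 fold -0.59), under 2-fold.

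The rule set the strains against each other on each diet with these same libraries, so the diet folds of the 2 strains are given side by side as a description. Of the 19 IDs at least 2-fold higher on rapeseed in strain A, 18 were also 2-fold higher in strain F, 6 of them from a listed 0. Of the 94 IDs of the class outside the 43 that were 2-fold higher in strain A, 42 were so in strain F. The exception among the 19 was c23164_g1, singled out after its values were seen, at 45.1 FPKM on rapeseed against 61.5 FPKM on fishmeal in strain F and at 370 FPKM on rapeseed against 142 FPKM on fishmeal in strain A. With the scale factors divided out its log2 fold was -1.03 in strain F and 0.94 in strain A. Of the 24 other IDs, 9 were 2-fold higher on rapeseed in strain F and 1 was lower, and 3 were higher and 2 lower with the factors divided out.

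For the 9 high-set IDs that were above 0 in strain F on fishmeal, the median log2 fold was 3.54 in strain F and 3.21 in strain A. The folds in strain F ranged from 2.92 to 5.34, and from 2.38 to 4.79 with the scale factors divided out. The factors add 0.60 to diet folds in strain F and 0.43 in strain A, which bears on the gap between the medians.

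**Figure D3:**
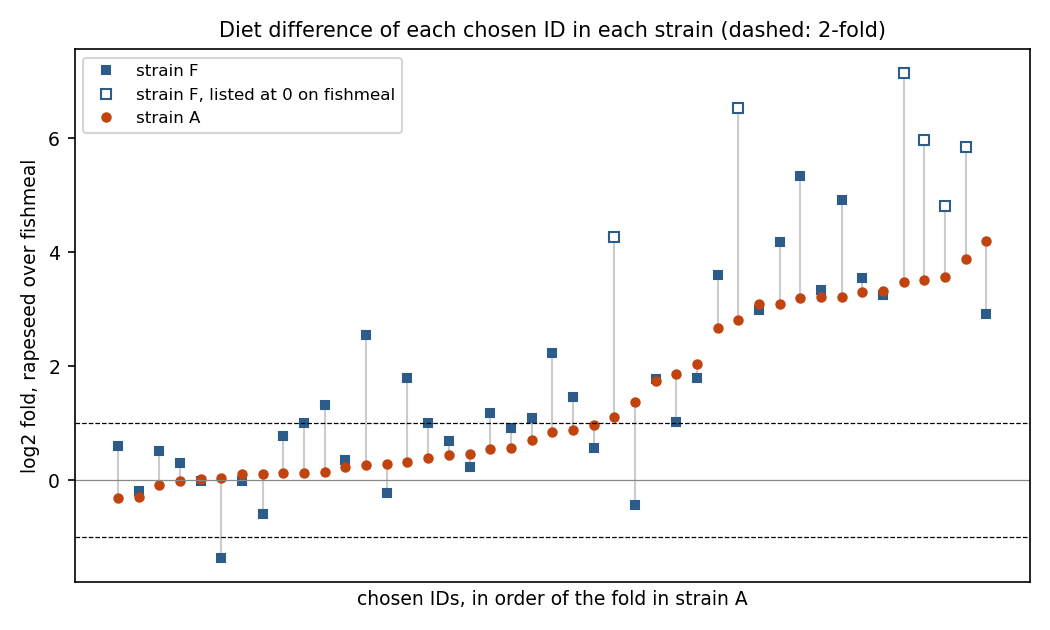
Diet difference (log2 of rapeseed over fishmeal) for strain F (blue squares, open where the ID was listed at 0 on fishmeal) and for strain A (red circles) for each of the 43 IDs, in order of the fold in strain A. Grey lines join the strains and dashed lines mark 2-fold. At the right end, 14 IDs lie at 2.67 or more in strain A. All of these lie at 2.92 or more in strain F, 5 of them from a listed 0 on fishmeal.

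In 30 of the 43 IDs the strain difference was larger on fishmeal than on rapeseed, and in 26 with the scale factors divided out. Both counts include the 6 IDs listed at 0 in strain F on fishmeal. The class leaned the same way, with a median log2 strain fold of -0.50 on fishmeal and -0.16 on rapeseed. Among the 37 IDs above 0 throughout, the strain difference was larger on fishmeal by a log2 difference of 1 or more in 7. It was larger on rapeseed by as much in 3. With the factors divided out these counts were 6 and 4. The 3 on the deposited scale were c32262_g3, c28218_g2 and c23164_g1, the last of which the naming rule did not choose. With 1 library per combination of strain and diet, none of these differences was tested.

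Of the 43 IDs, 22 (51.2%) were the only ID of their component, against 49.4% of the 774 IDs of the class. The 43 fell into 42 components. The component with a pair of chosen IDs was c33684, singled out after its values were seen. c33684_g1 stood at 39.0 FPKM in strain F against 218 FPKM in strain A on fishmeal, and at 402 FPKM in strain F against 2023 FPKM in strain A on rapeseed. c33684_g2 was listed at 0 in strain F against 79.3 FPKM in strain A on fishmeal, and had 62.0 FPKM in strain F against 919 FPKM in strain A on rapeseed. Both were in the high set for diet in strain A.

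The components held 59 further IDs, of which 48 in 18 components had a mean level of 1 FPKM or more. The rule screened these IDs too and left them out by their own values, among them c33007_g1 for its listed 0 in strain F on rapeseed, so their counts are a description. On rapeseed 22 of the 48 (45.8%) were at least 2-fold lower in strain F and 4 were 2-fold higher, against 12.5% and 11.1% of all 35517 IDs of that level. On both diets 17 were lower and 3 higher, against 9.71% and 3.69%. Of the 17, 16 were listed at 0 in strain F on fishmeal, as were 3186 of the 3447 IDs of that level lower on both diets. Most of those lower on rapeseed came from c33007 and c35040, components singled out after their values were seen. Outside these, 7 of 29 IDs were lower on rapeseed and 3 higher. At a mean level of 10 FPKM or more, 11 of 26 were lower on rapeseed and 2 higher, against 7.57% and 8.39% of the 6831 IDs of that level. Outside c33007 and c35040 1 of 12 was lower and 1 higher.

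Component c33007 held the largest lower values among the further IDs. c33007_g1 was listed at 0 on both diets in strain F, with 447 FPKM on fishmeal and 481 FPKM on rapeseed in strain A. c33007_g9 was likewise listed at 0 in strain F, with 99.9 FPKM on fishmeal and 103 FPKM on rapeseed in strain A. Of the 7 further IDs of c33007 at 1 FPKM or more, 6 were 2-fold lower in strain F on both diets. The exception was c33007_g3, at 21.9 FPKM in strain F against 7.60 FPKM in strain A on fishmeal and 40.9 FPKM in strain F against 4.95 FPKM in strain A on rapeseed (log2 fold 2.82). Summed over the component, the level was 32.6 FPKM in strain F against 918 FPKM in strain A on fishmeal, and 112 FPKM in strain F against 995 FPKM in strain A on rapeseed. Whether the summed IDs are parts of 1 gene is unknown, here and in the sums that follow.

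In c35040 the chosen c35040_g8 stood at 351 FPKM in strain F against 903 FPKM in strain A on fishmeal, and at 298 FPKM in strain F against 1101 FPKM in strain A on rapeseed. Of its 12 further IDs at 1 FPKM or more, 9 were 2-fold lower in strain F on rapeseed and 5 on both diets, and 0 were higher on rapeseed. The component's sum was 1883 FPKM in strain F against 2246 FPKM in strain A on fishmeal (log2 fold -0.25) and 1036 FPKM in strain F against 2911 FPKM in strain A on rapeseed (log2 fold -1.49). The sum was thus lower by over 2-fold with the rapeseed diet only.

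In c31647 the IDs went in opposite directions. c31647_g1, a chosen ID, stood at 98.5 FPKM in strain F against 457 FPKM in strain A on fishmeal and at 97.2 FPKM in strain F against 494 FPKM in strain A on rapeseed. c31647_g2 had 28.0 FPKM in strain F on fishmeal and 27.9 FPKM there on rapeseed, and both strain A libraries listed it at 0. On the deposited scale the values of each ID were nearly the same on the 2 diets within a strain. With the scale factors divided out, c31647_g1 had a log2 diet fold of -0.62 in strain F and -0.32 in strain A. The component's sum was 126 FPKM in strain F against 457 FPKM in strain A on fishmeal and 125 FPKM in strain F against 494 FPKM in strain A on rapeseed, still over 2-fold lower in strain F.

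In other components the sum differed less between the strains than the chosen ID did. These were picked after their values were seen. In c32262 the chosen c32262_g3 made up 2.13% of the component's summed level in strain F against 28.3% in strain A on fishmeal, and 0.546% in strain F against 20.9% in strain A on rapeseed. The sum was 1031 FPKM in strain F against 1608 FPKM in strain A on fishmeal (log2 fold -0.64) and 1456 FPKM in strain F against 2222 FPKM in strain A on rapeseed (log2 fold -0.61). The further ID c32262_g2 stood at 997 FPKM in strain F against 1139 FPKM in strain A on fishmeal, and at 1429 FPKM in strain F against 1740 FPKM in strain A on rapeseed. In c32160 the summed level was 814 FPKM in strain F against 822 FPKM in strain A on fishmeal and 1050 FPKM in strain F against 1036 FPKM in strain A on rapeseed, although the chosen c32160_g3 stood at 30.9 FPKM in strain F against 239 FPKM in strain A on fishmeal and 71.4 FPKM in strain F against 348 FPKM in strain A on rapeseed. Reads shared between copies within a component could not be examined. Of the 18 components with further IDs at 1 FPKM or more, the sum was at least 2-fold lower in strain F on both diets in 11 and on rapeseed in 12. Each sum includes its chosen ID, which the rule made 2-fold lower, so these counts partly restate the choice. The chosen ID made up from 20.9% (c32262) to 100% (c31647) of the strain A sum on rapeseed. Both counts are on the deposited scale. The median log2 fold of the sums on rapeseed was -1.36, against -2.13 for the 18 chosen IDs in them.

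**Figure D4:**
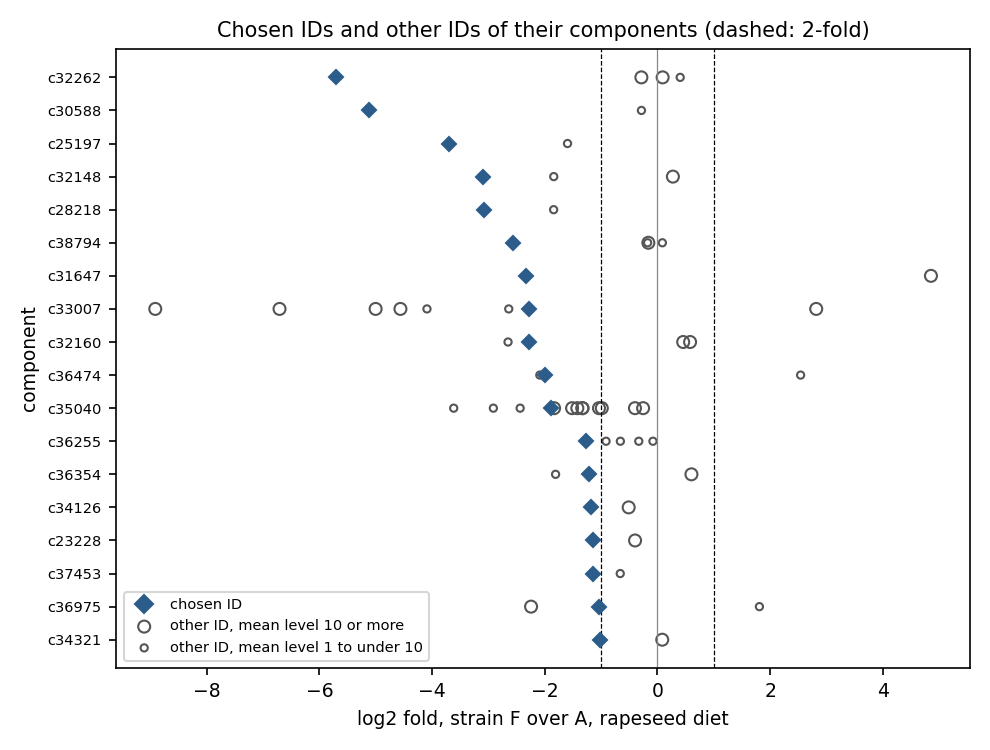
Log2 fold of strain F over strain A on rapeseed for the chosen IDs (diamonds) and the further IDs of mean level 1 FPKM or more (circles, large at 10 FPKM or more) in 18 components, 1 row each. Dashed lines mark 2-fold. The circles of c33007 and c35040 lie mostly to the left, and those of c32262 and c32160 lie mostly near 0, while the circle of c31647 lies far to the right.

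The edges of the rule were as follows. The chosen IDs with the lowest and highest mean levels were c25197_g2, at 106 FPKM, and c9762_g1, at 950 FPKM. Just outside, c33389_g2 had a mean of 97.5 FPKM and c21230_g1 of 1186 FPKM, both 2-fold lower in strain F on both diets. On fishmeal c29555_g1 was just inside, with a log2 fold of -1.01, and c9886_g1 just outside, with -0.96. On rapeseed c29853_g1 was the nearest inside and c30673_g2 the nearest outside, with log2 folds that agree to 2 decimals. The IDs left out for a listed 0 in strain F on rapeseed were c33007_g1 and c35651_g6, whose means were 232 and 151 FPKM.

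The same class held 30 IDs with the reverse pattern, higher in strain F by at least 2-fold on each diet, or 3.88% of the 774. Unlike the 43, these were not required to be above 0 in the lower strain on rapeseed. In strain A, 10 of these 30 were 2-fold higher on rapeseed and 8 lower, where 19 of the 43 were higher and 0 lower. With the scale factors divided out, 9 of the 30 were higher and 9 lower, against 17 and 0 of the 43. Strain A is the lower strain of the 30 but the higher strain of the 43, so these counts are not like for like. In strain F, the higher strain of the 30, 3 of them were 2-fold higher on rapeseed and 15 lower. With the factors divided out these were 2 and 18. The choice of the 30 used these same libraries. The strain fold of the 30 on rapeseed had a median of 4.50 on the log2 scale, from 1.34 to 9.15. The difference in diet response between the sets was not tested.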

How the data were processed

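The authors deposited 4 tables, 1 for each library, of 56011 IDs. The labels and file headers state no unit. From the values, the deposited values were read as FPKM multiplied by 1 factor per library. Per the submitters' processing notes, the tools included RSEM 1.2.17 and Bowtie 1.0.1. No source used here names the assembly. The factor of a library was found as the largest step of which its values under 3 are whole multiples (100% within 0.0006), divided by 0.01 as for numbers of 2 decimals. That such values are rescaled FPKM was not stated by any source.

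Folds were differences of log2(FPKM + 1), described by a fixed size of 2-fold. With 1 library per group no test was run, and depth in reads is unknown. Procedures were tested on simulated data. Python 3.11.15, numpy 2.4.6 and pandas 2.3.3 were used. The chosen IDs and comparisons were fixed with earlier results of these data known. IDs were named by extremes, at most 2 higher and 2 lower per comparison: mean level, strain fold on each diet, listed zeros, diet fold in each strain, further IDs of the components and edges of the rule. Alternatives changed the pseudocount (0.1 or 10), the scale factors, the requirement above 0 in strain F on rapeseed, the libraries that set the level, and the level of further IDs.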

Additional observations from a re-analysis of the deposited data

Results flagged for a closer look

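Among the 43 IDs and the further IDs of their components at 10 FPKM or more, c35040_g7 was at least 2-fold different between the strains in opposite directions on the diets. It stood at 58.2 FPKM in strain F against 18.6 FPKM in strain A on fishmeal (log2 fold 1.60), and at 10.7 FPKM in strain F against 28.6 FPKM in strain A on rapeseed (log2 fold -1.33). Subtracting the fishmeal from the rapeseed log2 fold gave -2.93. The difference was not tested, and it includes the strain F fishmeal library. Of the further IDs at 10 FPKM or more, 1 went in opposite directions on the deposited scale and 2 with the scale factors divided out.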

How the results depend on the processing

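No paired analysis was possible because each combination of strain and diet has 1 library. For the same reason no library could be left out within a group. With the scale factors divided out and the choice made anew, 23 IDs passed, none of them new, against 43. The medians and diet counts given below with the factors divided out are over the original 43 IDs, not these 23. The median log2 fold on fishmeal, -2.15 as reported, was -2.17 with a pseudocount of 0.1, -1.81 with 10, -1.66 with the factors divided out, -2.16 without the requirement above 0 in strain F on rapeseed and -2.16 with the level set by the other 3 libraries. That on rapeseed, -1.99 as reported, was -1.90, -1.67, -2.00 and -1.90 under the last 4 of these settings. The number 2-fold lower on rapeseed in strain F, 1 as reported, was 0 with a pseudocount of 10, 3 with the factors divided out (c32262_g3, c32148_g1 and c23164_g1) and 2 with the level set by 3 libraries. Of the further IDs, 7 in place of 17 were lower in strain F on both diets with a pseudocount of 10, and 7 at a level of 10 or more. With a pseudocount of 10, 1 in place of 3 was higher. The number 2-fold higher on rapeseed in strain A was 17 to 19 in every setting tried. Reads per ID are unknown, so the counting error of the strain F fishmeal values, with 36996 IDs listed at 0, could not be given.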
